A study of Mus musculus with 18 samples.

Results

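Matrix metalloproteinases are zinc-dependent enzymes that cut collagens, laminins and other proteins of the matrix around cells, and tissue inhibitors of metalloproteinases (TIMPs) bind and block them. In the mammary gland these enzymes act during ductal branching and involution, and in mammary tumours they are made by fibroblasts and immune cells as well as by the tumour cells. The genes described here are Mmp2, Mmp3, Mmp7, Mmp9, Mmp11, Mmp13, Mmp14, Mmp15, Timp1 and Timp3. They were chosen by name, and every probe carrying those names on the arrays was taken. That gave 10 genes of 28919 and 14 probes of 41174, with 2 probes each for Mmp9 and Mmp14 and 3 for Timp1. Where a gene has several probes, probe 1 is the one that was brightest, on average, over the KI arrays.

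The tissue was flash-frozen whole mammary gland or mammary tumour, and all mice were females of the inbred strain FVB/N. There were 2 normal mammary glands, 2 pools of NIC tumours, each mixed from equal amounts of 5 tumours, and 5 single tumours of mice with an ErbB2 knock-in (KI). ErbB2 is a receptor tyrosine kinase, and the series title places the tumours in a study of β-catenin in ErbB2-driven tumour progression. The labels give no age, no further allele and no explanation of NIC, nor of the suffix PI that the identifier of normal gland 2 carries and that of normal gland 1 does not. As background, NIC is the usual name of a transgenic line in which a mammary tumour virus promoter drives activated ErbB2 together with Cre recombinase in mammary epithelium, and the knock-in puts activated ErbB2 under its own promoter. A pool averages its tumours, so the spread between the NIC pools is not the spread between NIC tumours.

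Each RNA was hybridised on 2 arrays against 1 commercial mouse reference RNA, with the dyes exchanged. Levels below are log2 ratios of sample over reference, averaged over the dye pair, so that a difference of 1 is a 2-fold difference. A level says how a gene stands against the reference and is not compared between genes. The normal and NIC values lie in one deposited table and the KI values in another, so a difference between KI and either other group and a difference between tables cannot be told apart. Erbb2 read −0.062 and −0.071 in normal gland, 1.82 and 1.68 in the NIC pools, and 2.04 to 4.22 over the KI tumours. Of 10 luminal epithelial markers (Krt8, Epcam and others) 8 were called higher in NIC tumours and 9 in KI tumours than in normal gland. Adipocyte markers had medians of 3.79 and 3.14 in the normal glands and between −0.066 and 0.39 in all 7 tumour samples. In bulk tissue of this kind, fewer cells of a type and less RNA per cell cannot be told apart. The 2 arrays of a dye pair correlated over all probes at r = 0.824 to 0.942, lowest for normal gland 2 and NIC pool 1. All 14 probes lay well above background on all 10 KI arrays and none was saturated.

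Mmp3, Mmp7 and Mmp13 lie in 1 cluster of metalloproteinase genes on mouse chromosome 9, whose promoters are known for AP-1 sites, which bind Fos and Jun proteins. The 150 bases before each start site are shown because Mmp13 and Mmp3 had the widest ranges among KI tumours and Mmp7 the narrowest, by the brightest probe of each gene. Mmp14 and Timp1, which followed a pattern like that of Mmp13 over the samples, are shown beside them. Sequences are those of RefSeq on GRCm38.p6, 5′ to 3′ and on the plus strand for all of them. Capitals mark matches to the AP-1 motif TGAGTCA or the PEA3 motif AGGAAG on either strand.
Mmp13, chr9:7272364-7272513: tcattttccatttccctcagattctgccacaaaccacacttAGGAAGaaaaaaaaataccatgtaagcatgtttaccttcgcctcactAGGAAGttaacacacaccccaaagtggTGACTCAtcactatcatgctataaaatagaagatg
Mmp3, chr9:7445672-7445821: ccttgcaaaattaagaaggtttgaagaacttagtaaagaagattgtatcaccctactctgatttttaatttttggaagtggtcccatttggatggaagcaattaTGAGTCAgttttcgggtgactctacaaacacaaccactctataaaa
Mmp7, chr9:7691940-7692089: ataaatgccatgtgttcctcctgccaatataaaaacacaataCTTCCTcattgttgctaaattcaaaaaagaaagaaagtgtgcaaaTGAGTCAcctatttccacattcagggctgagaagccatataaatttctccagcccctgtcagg
Mmp14, chr14:54431448-54431597: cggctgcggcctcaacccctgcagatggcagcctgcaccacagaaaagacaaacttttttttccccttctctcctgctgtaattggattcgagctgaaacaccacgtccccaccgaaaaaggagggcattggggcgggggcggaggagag
Timp1, chrX:20870016-20870165: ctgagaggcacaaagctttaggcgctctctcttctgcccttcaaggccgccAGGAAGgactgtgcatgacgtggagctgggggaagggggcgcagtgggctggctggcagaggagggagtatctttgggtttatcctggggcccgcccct
In windows running from 250 bases before to 50 bases after a start site, TGAGTCA or its reverse complement TGACTCA occurred in 5.2% of 32851 promoters. Of the 8 members with such a window, 3 held it, namely Mmp13 (first base 35 before the start), Mmp3 (46 before) and Mmp7 (63 before). A second listed start of Mmp7 had no match. AGGAAG or CTTCCT occurred in 35.4% of all windows and in those of 6 of the 8 members, and a TATAAA, searched on the plus strand of each gene, in 8.32% and in the same 3 members as the AP-1 motif. Mmp2 and Mmp9 are not among the sequences used here. A match is a description of letters: Mmp3, Mmp7 and Mmp13 share these 3 motifs, and their levels over the samples, given below, differ widely.

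**Figure D1:**
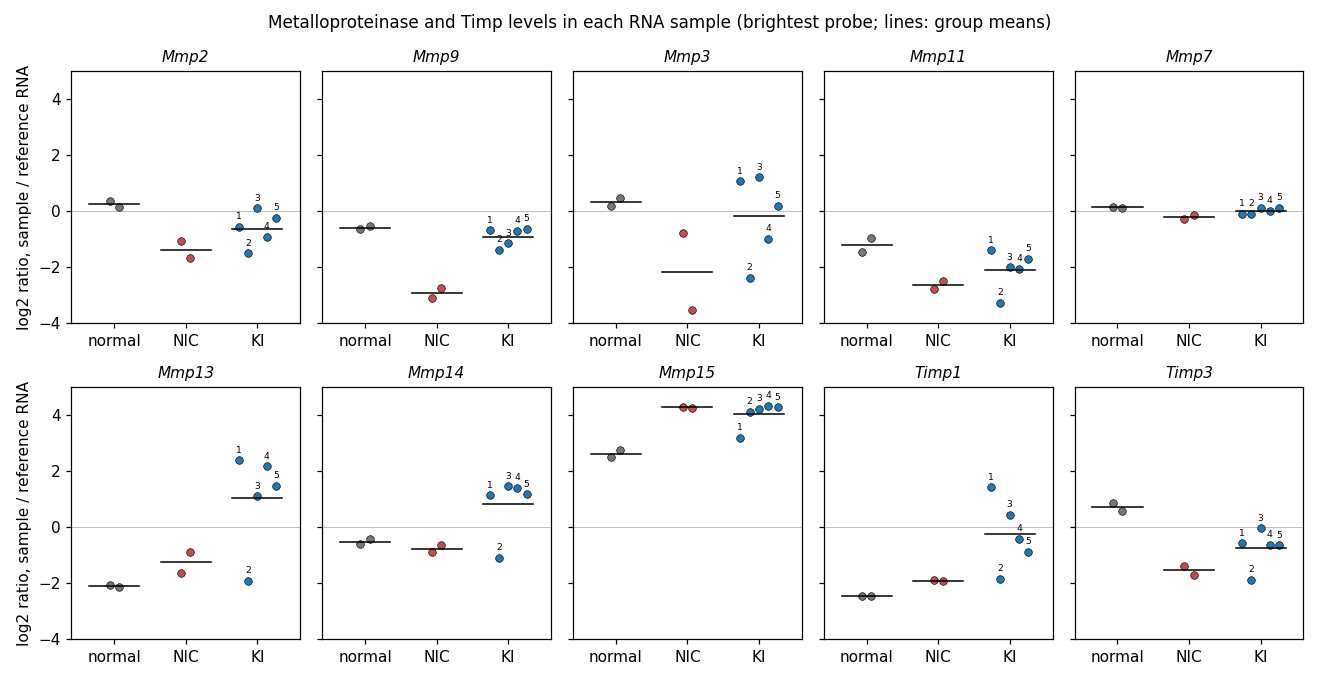
Log2 ratio of sample over reference RNA (vertical axis) for the brightest probe of each of the 10 genes, by group; each point is 1 RNA sample averaged over its dyes, horizontal lines are group means, and digits number the KI tumours. KI tumour 2 is the lowest KI tumour in 8 panels. It lies near the NIC pools for Mmp14 and Timp1, and near the normal glands and below both NIC pools for Mmp13.

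Mmp2 and Mmp9 are the gelatinases, which digest denatured collagen and the type IV collagen of basement membranes. Both were lower in the NIC pools than in the normal glands, with Mmp9 called on 1 of its 2 probes, and KI tumours read close to normal gland for Mmp9. Mmp9 probe 1 read −0.65 and −0.55 in the normal glands, −3.09 and −2.74 in the NIC pools, and −0.69, −1.38, −1.15, −0.71 and −0.63 in KI tumours 1 to 5. The NIC pools lay apart below all other samples, and KI tumours 2 and 3 were the lowest of the KI tumours. Mmp9 was 4.97-fold lower in NIC tumours than in normal gland (log2 difference −2.31 ± 0.16 SE, n = 2 and 2, limma adjusted p = 0.0124). It was 4.01-fold higher in KI tumours than in NIC tumours (2.00 ± 0.22, n = 5 and 2, adjusted p = 0.00473). Against normal gland the KI tumours differed by −0.31 ± 0.22 with a 95% interval from −0.84 to 0.21, which was not called (adjusted p = 0.302). The second Mmp9 probe gave a like picture with more scatter: −1.83 and −0.75 in normal gland, −3.39 and −3.46 in the NIC pools, and −0.81, −2.79, −1.38, −0.71 and −0.69 in the KI tumours. On that probe KI tumour 2 came closest to the NIC pools, and neither NIC against normal (−2.13 ± 0.42, adjusted p = 0.0508) nor KI against NIC (2.15 ± 0.60, adjusted p = 0.0776) was called. Without KI tumour 2 the latter was called (2.53, adjusted p = 0.0112), and without normal gland 1 or 2 the former was −2.67 and −1.59. Of the 8 alternatives that kept every RNA sample, 4 called the former, among them arrays scaled to 1 spread (−2.76, adjusted p = 0.0159). Here and below, reading members without KI tumour 2 was chosen after seeing the data. That tumour was the lowest KI tumour for 8 of the 10 genes, and leaving out a lowest value narrows the KI spread. For probe 1 the call of NIC against normal was lost without NIC pool 1 or 2 (−2.14 and −2.49, adjusted p = 0.0945 and 0.0852), as were all NIC calls against normal, since no probe on the array was called with 1 pool. With the sample in Cy5 alone the call of NIC against normal for probe 1 was also lost (−2.28, adjusted p = 0.0629). The call of KI against NIC for probe 1 held in each of the alternatives run.

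Mmp2 read 0.37 and 0.13 in the normal glands, −1.08 and −1.69 in the NIC pools, and −0.57, −1.52, 0.096, −0.92 and −0.25 in the KI tumours. Normal glands were above every tumour sample, and KI tumour 2 lay between the NIC pools while KI tumour 3 nearly reached the normal glands. Mmp2 was 3.1-fold lower in NIC tumours than in normal gland (−1.63 ± 0.26, adjusted p = 0.0366; adjusted p between 0.0911 and 0.11 with any 1 of the 4 samples left out). The NIC call was also lost with the sample in Cy3 alone (−1.62, adjusted p = 0.0903). Neither KI against normal (−0.88 ± 0.41, adjusted p = 0.123) nor KI against NIC (0.75 ± 0.41, adjusted p = 0.329) was called.

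Mmp3 (stromelysin-1) cuts many matrix proteins and activates other metalloproteinases, and Mmp11 (stromelysin-3) is typically made by stromal cells next to tumour epithelium. Mmp3 read 0.18 and 0.47 in the normal glands, −0.80 and −3.53 in the NIC pools, and 1.05, −2.39, 1.21, −0.99 and 0.18 in the KI tumours. It spread over 3.59 log2 units among the KI tumours, a 12.1-fold range, and NIC pool 2 lay far below NIC pool 1. The 2 arrays of NIC pool 1 themselves differed by 2.44 for this probe. No comparison of Mmp3 was called: NIC against normal was −2.49 ± 1.03 (adjusted p = 0.177), KI against normal −0.51 (adjusted p = 0.743), and KI against NIC 1.98 ± 1.10 (adjusted p = 0.341).

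Mmp11 read −1.46 and −0.98 in the normal glands, −2.77 and −2.50 in the NIC pools, and −1.41, −3.27, −2.0, −2.06 and −1.71 in the KI tumours. KI tumour 2 was lower than both NIC pools and KI tumour 1 overlapped the normal glands. Mmp11 was 2.67-fold lower in NIC tumours than in normal gland (−1.42 ± 0.23, adjusted p = 0.0365). That call was lost without normal gland 2 (−1.18, adjusted p = 0.0696) or without either NIC pool (−1.28 and −1.56, adjusted p = 0.18 and 0.135). The NIC call was also lost with the sample in Cy3 alone (−1.60, adjusted p = 0.0761) and with all 9 samples in the fit (−1.42, adjusted p = 0.0769). KI against normal was −0.87 (adjusted p = 0.161; −0.58 without KI tumour 2) and became a call when arrays were brought to 1 spread (−1.57, adjusted p = 0.0358) or quantile normalized (−1.5, adjusted p = 0.0161). KI against NIC was 0.55 (adjusted p = 0.537).

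Timp3 is the inhibitor that binds to the matrix itself and also blocks ADAM proteases. It read 0.86 and 0.59 in the normal glands, −1.38 and −1.69 in the NIC pools, and −0.58, −1.88, −0.040, −0.62 and −0.65 in the KI tumours. By the mean of the dye pair every tumour sample was below both normal glands, and KI tumour 2 was the lowest of all. The 2 arrays of normal gland 2 differed by 1.70 for this probe (1.44 in Cy5 and −0.26 in Cy3). In Cy3 KI tumour 3 read −0.11, above normal gland 2. Timp3 fell in both tumour types: it was 4.8-fold lower in NIC tumours (−2.26 ± 0.18, adjusted p = 0.0138) and 2.79-fold lower in KI tumours (−1.48 ± 0.43, n = 5 and 2, adjusted p = 0.0274) than in normal gland. The KI call was lost without normal gland 1 or 2 (−1.35 and −1.61, adjusted p = 0.135 and 0.0875) and with arrays scaled to 1 spread (−1.37, adjusted p = 0.0597), and the NIC call without either NIC pool (adjusted p = 0.0948 and 0.0895). With the sample in Cy3 alone both the NIC and the KI call were lost (−1.99 and −1.02, adjusted p = 0.0728 and 0.126). KI against NIC was 0.78 (adjusted p = 0.33), and 1.06 without KI tumour 2 (adjusted p = 0.032).

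The median of the fibroblast markers moved with these genes, but not every marker or probe did. The median of the 10 fibroblast markers (among them Col1a1, Pdgfra and Dcn) was 1.94 and 1.73 in the normal glands, −0.42 and −1.36 in the NIC pools, and 0.48, −1.05, 0.65, −0.24 and 0.65 in KI tumours 1 to 5. Of the 10 markers 5 were called lower in NIC tumours and 4 in KI tumours than in normal gland, and limma called none between KI and NIC tumours (3 had an unadjusted p under 0.05). Over all probes, 8.62% were called lower in NIC tumours and 22.2% in KI tumours than in normal gland. Col1a1 differed from normal gland by −0.20 in NIC and 0.53 in KI tumours, with no call. The counted probes of Pdgfra and Dcn gave −3.82 and −4.70 for NIC and −3.34 and −3.96 for KI tumours. Their second probes gave −0.10 and −0.23 for NIC and 0.031 and −0.22 for KI tumours. KI tumour 2 and NIC pool 2 were lowest for the marker median as they were for Mmp2, Mmp3 and Timp3. The plot of members against marker medians shows this for Mmp2 and Timp3. Of 10 endothelial markers 6 were called lower in NIC tumours and 3 in KI tumours than in normal gland, with medians of 2.69 and 3.03 in normal gland, 1.42 and 1.17 in the NIC pools and 0.94 to 2.25 in the KI tumours. The endothelial count for KI tumours lies near the share over all probes. The part of either cell type in the levels of Mmp2, Mmp3, Mmp11 and Timp3 was not tested.

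**Figure D2:**
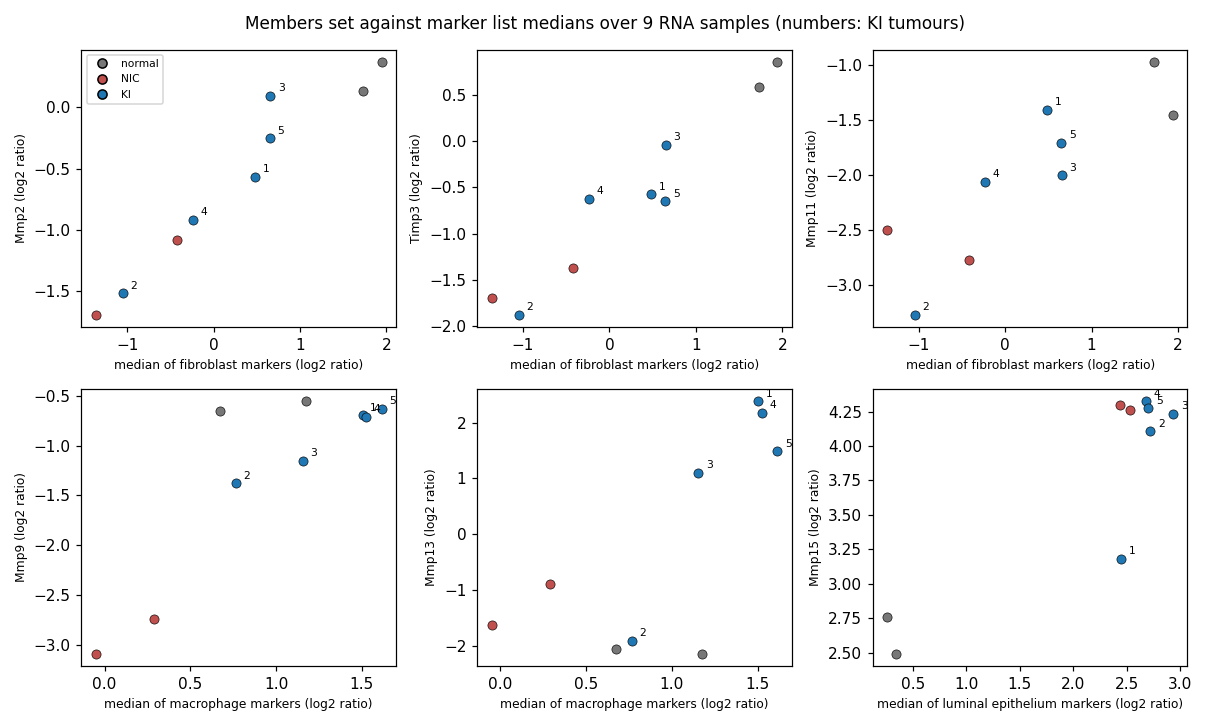
Level of 6 members (vertical axes, log2 ratio) against the median log2 ratio of a marker list (horizontal axes) in the 9 RNA samples; grey, red and blue points are normal glands, NIC pools and KI tumours, with KI tumours numbered. Mmp2 and Timp3 are highest in the normal glands and lowest in KI tumour 2 and NIC pool 2, as the fibroblast medians are. Mmp9 is lowest in the NIC pools where macrophage medians are lowest (−0.051 and 0.29). Of the 10 macrophage markers, however, 2 were called higher and 1 lower in NIC tumours than in normal gland. Mmp15 is high in the tumour samples where luminal medians are 2.43 to 2.93.

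Mmp13 (collagenase-3) cleaves fibrillar collagen, and Mmp14 is the membrane-bound enzyme that activates pro-Mmp2 at the cell surface. Both were higher in 4 of the 5 KI tumours than in every normal gland and NIC pool. Mmp13 read −2.06 and −2.14 in the normal glands, −1.63 and −0.89 in the NIC pools, and 2.38, −1.91, 1.10, 2.17 and 1.48 in the KI tumours. KI tumour 2 was at the level of normal gland and below both NIC pools, so that the KI tumours spanned a 19.6-fold range. Mmp13 was 8.86-fold higher in KI tumours than in normal gland (3.15 ± 1.07, n = 5 and 2, adjusted p = 0.049). The call was lost in most alternatives, among them without KI tumour 1 (2.81, adjusted p = 0.0816), 3 (3.13, adjusted p = 0.0805), 4 (2.87, adjusted p = 0.0886) or 5 (3.04, adjusted p = 0.0896), without either normal gland (3.19 and 3.11, adjusted p = 0.158 and 0.171) and with arrays scaled to 1 spread (2.68, adjusted p = 0.146). KI against NIC was 2.30 ± 1.07 (adjusted p = 0.255) with all tumours and 3.04 (adjusted p = 0.0113) without KI tumour 2. NIC against normal was 0.85 ± 0.29 and not called (adjusted p = 0.13).

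Mmp14 probe 1 read −0.60 and −0.43 in the normal glands, −0.89 and −0.64 in the NIC pools, and 1.14, −1.09, 1.46, 1.40 and 1.17 in the KI tumours. KI tumours 1, 3, 4 and 5 lay within 0.32 of each other, and KI tumour 2 was 2.38 below their mean and the lowest of all 9 samples. With it, KI against normal was 1.33 ± 0.66 (adjusted p = 0.146) and KI against NIC 1.59 ± 0.66 (adjusted p = 0.207). Without it, Mmp14 was higher in KI tumours than in normal gland (1.81, adjusted p = 0.000453) and than in NIC tumours (2.06, adjusted p = 0.00298). That omission was chosen after seeing the data. Taking out the lowest value raises the KI mean and narrows the KI spread, so these p-values cannot decide whether the groups differ. The other probe read −1.20 and −1.42 in normal gland, −0.43 and −0.39 in the NIC pools, and 0.21, −0.79, 0.55, 0.89 and 0.20 in the KI tumours. On it KI tumours were 2.88-fold above normal gland (1.52 ± 0.39, adjusted p = 0.0175; adjusted p = 0.0646 and 0.0976 without normal gland 1 or 2). This call was also lost with arrays scaled to 1 spread (1.16, adjusted p = 0.0891) and after quantile normalization (1.19, adjusted p = 0.0649). The 2 probes disagreed for NIC tumours: probe 2 was called higher than in normal gland (0.90 ± 0.12, adjusted p = 0.0276) and probe 1 differed by −0.25 ± 0.14 (adjusted p = 0.28). With the sample in Cy3 alone probe 2 was not called (0.43, adjusted p = 0.338), nor with all 9 samples in the fit (0.90, adjusted p = 0.171). The call of probe 2 was lost without normal gland 2 (0.80, adjusted p = 0.0601), without either NIC pool (adjusted p = 0.162 and 0.151), and with arrays scaled to 1 spread (0.45, adjusted p = 0.0617).

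Timp1 is a secreted inhibitor of most metalloproteinases and is induced in wounds and inflammation. Its probe 1 read −2.45 and −2.43 in the normal glands, −1.90 and −1.92 in the NIC pools, and 1.42, −1.84, 0.43, −0.41 and −0.89 in the KI tumours. The KI tumours spanned a 9.58-fold range, with tumour 1 at the top and tumour 2 at the level of the NIC pools, and all 5 were above the normal glands. Over the 3 probes, KI tumours exceeded normal gland by 2.19, 3.03 and 2.78 (SE 0.77, 0.88 and 0.91). Probes 2 and 3 were called (8.19-fold and 6.86-fold, adjusted p = 0.0279 and 0.0421) and probe 1 was not (adjusted p = 0.0535, and 0.0161 without KI tumour 2 or 0.0467 without KI tumour 1). The calls of probes 2 and 3 were lost without normal gland 1 (3.02 and 2.82, adjusted p = 0.112 and 0.142), normal gland 2 (3.04 and 2.74, adjusted p = 0.113 and 0.156), KI tumour 3 (2.85 and 2.59, adjusted p = 0.0527 and 0.0758) or KI tumour 4 (3.04 and 2.80, adjusted p = 0.0515 and 0.071). Without KI tumour 5 the call of probe 3 was also lost (2.96, adjusted p = 0.0552), and with arrays scaled to 1 spread both were (1.78 and 1.58, adjusted p = 0.223 and 0.291).

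NIC tumours were called above normal gland on all 3 Timp1 probes (0.53, 1.23 and 1.14, adjusted p = 0.0406, 0.0152 and 0.0161), but with arrays scaled to 1 spread the sign turned on all of them (−0.40, −0.11 and −0.14, adjusted p = 0.0429, 0.445 and 0.303). The direction of Timp1 in NIC tumours therefore depends on the scaling. All 3 calls were lost with the sample in Cy3 alone or in Cy5 alone. They were also lost with all 9 samples in the fit (adjusted p = 0.686, 0.399 and 0.45). Leaving out either NIC pool ended all of these calls (adjusted p between 0.0952 and 0.227), and so did leaving out normal gland 2 (adjusted p = 0.085, 0.0519 and 0.0519). KI against NIC was 1.65, 1.80 and 1.64, with no call (adjusted p = 0.252 to 0.336), and without KI tumour 2 it was 2.05, 2.27 and 2.12 (adjusted p = 0.0939 to 0.12).

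Mmp15, another membrane-type enzyme, and Mmp7 (matrilysin) are typically made by epithelial cells. Mmp15 read 2.49 and 2.76 in the normal glands, 4.30 and 4.26 in the NIC pools, and 3.18, 4.11, 4.23, 4.32 and 4.27 in the KI tumours. All tumour samples were above both normal glands, KI tumour 1 was the lowest of them, and KI tumour 2 did not stand apart. Mmp15 rose 3.15-fold in NIC tumours (1.66 ± 0.14, adjusted p = 0.0142) and 2.64-fold in KI tumours (1.40 ± 0.30, n = 5 and 2, adjusted p = 0.00888). The NIC call was lost without either NIC pool (1.64 and 1.68, adjusted p = 0.109 and 0.0966) and the KI call without normal gland 1 (1.27, adjusted p = 0.0614). This probe also had the widest gap between dyes in each KI tumour, 0.64 to 1.12 log2 units. When KI values were taken from the scanner intensities by normexp and loess, KI against normal shrank to 0.27 (adjusted p = 0.449) and KI against NIC, −0.26 in the deposited values (adjusted p = 0.679), became −1.38 (adjusted p = 0.0152). Luminal epithelial markers had medians of 0.34 and 0.26 in normal gland, 2.43 and 2.52 in the NIC pools and 2.45 to 2.93 in the KI tumours, and their part in the Mmp15 levels was not tested.

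Mmp7 read 0.15 and 0.12 in the normal glands, −0.28 and −0.13 in the NIC pools, and −0.11, −0.099, 0.12, 0.0026 and 0.11 in the KI tumours. Its KI tumours spanned 0.23 log2 units, the narrowest of the members, although its probe was well above background. In each KI tumour the gap between dyes was wider than that range (Cy5 minus Cy3 from −0.40 to −0.53). None of its comparisons was called, with differences of −0.34 (adjusted p = 0.113), −0.13 (adjusted p = 0.288) and 0.21 (adjusted p = 0.211) for NIC against normal, KI against normal and KI against NIC.

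**Figure D3:**
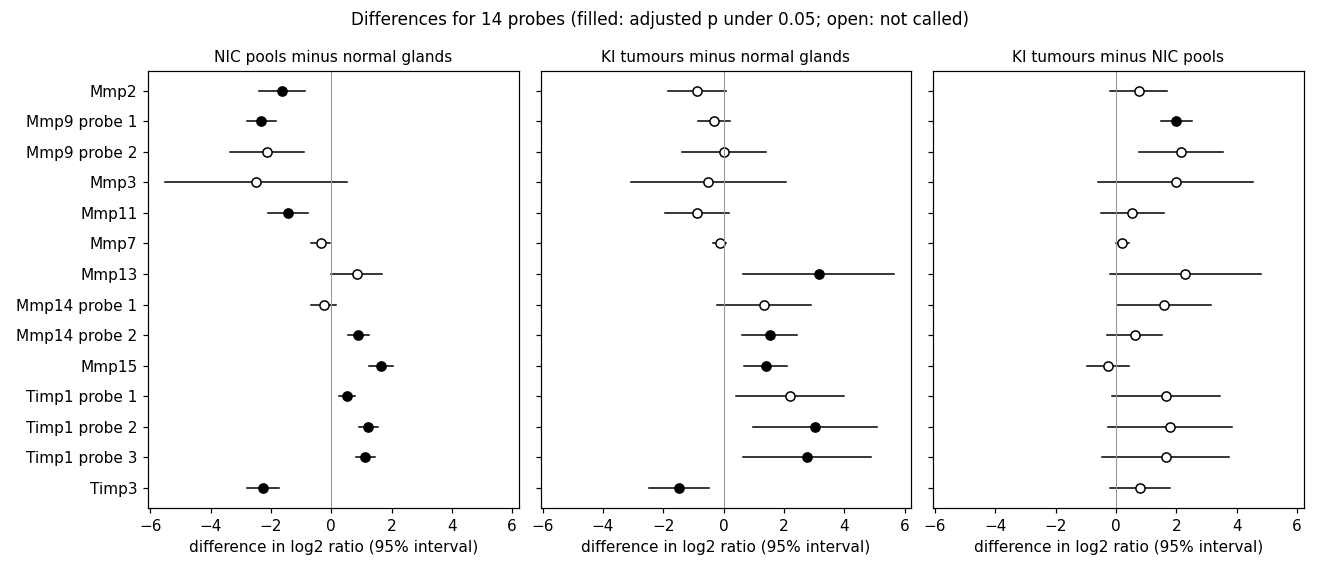
Difference in log2 ratio (horizontal axis) with its 95% interval for the 14 probes (vertical axis) in each of the 3 comparisons; filled points passed the test at an adjusted p under 0.05 and open points did not. Mmp2, Mmp9 probe 1, Mmp11 and Timp3 are filled on the left of 0 for NIC pools against normal glands, and Mmp9 probe 1 is the filled point for KI tumours against NIC pools.

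Set against all features tested, the members' share of calls differed from the background in 1 of the 3 comparisons, and there it depended on which samples entered the fit. For NIC against normal 9 of 14 probes were called, 5 higher (of which 3 are the Timp1 probes, whose sign turns with arrays scaled to 1 spread) and 4 lower, where 18.4% of all probes were called (9.82% higher and 8.62% lower). That fit holds 4 samples. With all 9 samples in the fit, as in the KI comparisons, 5 of 14 probes were called where 36.6% of all probes were, a share near the background. For KI against normal 6 of 14 were called, 5 higher and 1 lower, where 42.2% of all probes were called (20.1% higher and 22.2% lower), a share near that of the members. For KI against NIC 1 of 14 was called, higher, where 6.99% of all probes were called (3.02% higher and 3.97% lower). Without KI tumour 2 the count was 5, namely Mmp13, Timp3, Mmp14 probe 1 and both Mmp9 probes, where 7.67% of all probes were called. That tumour was left out after seeing that it was low for these genes, so the rise in count cannot be set against the background. KI against normal and NIC against normal share the normal glands, and probes of 1 gene are not independent of each other. By brightest probe, the median difference of the 10 genes was −0.88 for NIC against normal, −0.22 for KI against normal and 1.18 for KI against NIC, where the medians over all genes were −0.057, −0.025 and 0.0036. The groups did not overlap for 10, 5 and 3 of the 10 genes, where this held for 71.2%, 54.1% and 31.1% of all genes.

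KI tumour 2 stood apart from the other KI tumours in these genes. It was the lowest KI tumour for 8 of the 10 genes, Mmp7 and Mmp15 being the others, where it was the lowest for 26.3% of all genes. KI tumour 3 was the highest for 5 of the 10 genes and for 24.8% of all genes. KI tumour 2 was below the mean of the other KI tumours by 3.69 log2 units for Mmp13, 2.75 for Mmp3, 2.38 for Mmp14, 1.98 for Timp1, 1.47 for Mmp11, 1.41 for Timp3 and 1.11 for Mmp2. From the mean of the NIC pools it differed by −0.65 for Mmp13, −0.22 for Mmp3, −0.32 for Mmp14, 0.073 for Timp1, −0.34 for Timp3 and −0.13 for Mmp2, and by 1.54 for Mmp9. Its Erbb2 level, 3.41, was within the range of the other KI tumours. Immune markers were low in the same tumour: the macrophage median was 0.77 there and 1.15 to 1.61 in the other KI tumours, and the neutrophil median was 0.082 against 2.34, 2.06, 0.46 and 2.55 in tumours 1, 3, 4 and 5. Normal glands had macrophage medians of 0.67 and 1.18 and the NIC pools −0.051 and 0.29, and neutrophil medians in these samples ran from −0.017 to 0.17. Of the macrophage markers 2 of 10 were called higher in KI tumours than in normal gland and 1 of 10 higher than in NIC tumours, and of the 9 measured neutrophil markers 2 and 1. Over all probes 20.1% were called higher in KI tumours than in normal gland, a share near these counts. In NIC tumours against normal gland 2 macrophage markers were called higher (C1qa by 2.03 and C1qb by 1.89) and 1 lower (Csf1r, −1.09), although the NIC medians were low. The other Csf1r probes gave −0.25 and 0.35. Mmp9 is a known product of neutrophils and macrophages as well as of other cells, and the part of these cells in the levels here was not tested.

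The chromosome 9 cluster held 10 metalloproteinase genes, 8 of them measured, in the order Mmp13, Mmp12, Mmp3, Mmp1a, Mmp10, Mmp8, Mmp20 and Mmp7. KI tumour 2 was the lowest KI tumour for 6 of the 8, where it was the lowest for 26.3% of all genes. Of these 6, Mmp13 and Mmp3 are members already counted above, and Mmp1a varied by only 0.16 log2 units among the KI tumours. The neighbours of the members are named here after their values were seen. Mmp12, the macrophage elastase, read −0.68 and −0.46 in normal gland, −0.15 and 1.5 in the NIC pools, and 1.68, −0.48, 2.10, 3.26 and 2.53 in the KI tumours. Like Mmp13, it was high in 4 KI tumours and at the level of normal gland in tumour 2, but NIC pool 2 was high as well, and KI against normal was not called (2.39 ± 0.94, adjusted p = 0.0766). Mmp8, the neutrophil collagenase, read 0.44, 0.010, 1.21, 1.21 and 1.56 in the KI tumours and −0.048 to 0.16 in the other samples, and was not called either (0.87, adjusted p = 0.118). Mmp1a and Mmp20 varied by 0.16 log2 units among the KI tumours and Mmp7 by 0.23, so by these probes the cluster did not vary as a whole. All of these probes read near the reference in every sample. For Mmp1a the probe shown gave 0.083 for NIC against normal and 0.10 for KI against normal, and its second probe −0.59 and −0.68. Whether a flat probe stands for an unvarying gene was not tested.

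**Figure D4:**
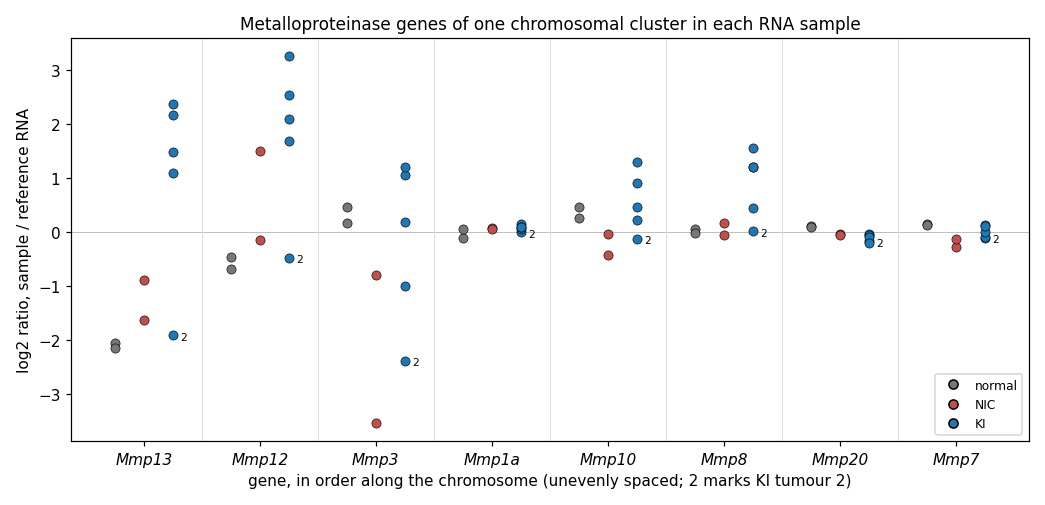
Log2 ratio of sample over reference RNA (vertical axis) for the 8 measured metalloproteinase genes of the chromosome 9 cluster, placed in chromosomal order at equal spacing; grey, red and blue points are normal glands, NIC pools and KI tumours, and the digit marks KI tumour 2. Mmp13, Mmp12 and Mmp3 spread by 3.59 to 4.29 log2 units among KI tumours, while Mmp1a, Mmp20 and Mmp7 stay within 0.23.

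Among metalloproteinases outside the member list, 13 of 15 were measured. Of these, 1 was called higher in NIC tumours than in normal gland, 5 lower in KI tumours than in normal gland, and 1 lower in KI than in NIC tumours. Counts for this list and those below stand against the shares over all probes, such as 20.1% higher and 22.2% lower for KI against normal. A count near those shares does not set a list apart. The gene that separated the tumour types was Mmp16, a further membrane-type enzyme, which read 0.11 and 0.10 in normal gland, 2.52 and 2.58 in the NIC pools, and −0.097, −0.41, 0.53, −0.49 and −0.83 in the KI tumours. It was 5.43-fold higher in NIC tumours than in normal gland (2.44 ± 0.094, adjusted p = 0.00936) and 7-fold lower in KI than in NIC tumours (−2.81 ± 0.32, adjusted p = 0.00482). Its second probe gave 0.88 and −0.77. The 5 that fell in KI tumours differed by less than 1 log2 unit each.

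Among the 6 other inhibitors, limma called none in NIC against normal (3 had an unadjusted p under 0.05), 3 were lower in KI tumours than in normal gland, and 1 was lower in KI than in NIC tumours. These counts take 1 probe per gene, and the probes of A2m disagreed. The counted A2m probe gave −0.23 for NIC against normal, −0.72 for KI against normal and −0.49 for KI against NIC. Its second probe gave 4.25, 0.56 and −3.69. Reck, a membrane-anchored inhibitor, fell by 1.73 ± 0.21 in KI tumours (adjusted p = 0.000979), and Timp4, a further TIMP, fell by 1.56 ± 0.28 (adjusted p = 0.00445). Like these, Timp3 was lower in KI tumours than in normal gland, while Timp1 was higher on 2 of its 3 probes. Timp2, which both inhibits Mmp2 and helps Mmp14 to activate it, was not called in any comparison. It read −0.74 and −1.66 in normal gland, −2.08 and −2.44 in the NIC pools, and −0.31, 1.40, −1.03, −1.55 and −0.95 in the KI tumours, so KI tumour 2, the lowest for Timp1 and Timp3, was the highest for Timp2, which is named here after its values were seen.

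Of 8 inducers and activators, 1 was higher and 2 lower in NIC tumours and 2 higher in KI tumours than in normal gland, and 1 was higher in KI than in NIC tumours. Bsg (basigin, or EMMPRIN), a surface protein that induces metalloproteinases in neighbouring cells, was higher in both tumour types than in normal gland. The difference was 2.98 ± 0.52 for NIC tumours (adjusted p = 0.0424) and 1.90 ± 0.42 for KI tumours (adjusted p = 0.00941), with the KI call lost without normal gland 2 (1.34, adjusted p = 0.078), the NIC call without normal gland 1 (3.54, adjusted p = 0.0558) or 2 (2.43, adjusted p = 0.0846), and both lost with arrays scaled to 1 spread (2.02 and 0.79, adjusted p = 0.053 and 0.182). Plaur, the urokinase receptor, rose by 1.07 in KI tumours (adjusted p = 0.029), a call lost without either normal gland (adjusted p = 0.132 and 0.0981), KI tumour 3 (adjusted p = 0.0522) or KI tumour 5 (adjusted p = 0.0549). It was 0.50 (adjusted p = 0.315) with arrays scaled to 1 spread and 0.56 (adjusted p = 0.261) after quantile normalization. Plat, tissue plasminogen activator, fell by 1.29 ± 0.16 in NIC tumours (adjusted p = 0.0236), and its other probes gave −0.34 and −1.05. The Plat call was lost without normal gland 1 or 2 (−1.20 and −1.39) and with the sample in Cy3 alone (−1.25, adjusted p = 0.0769).

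Of 14 other secreted or membrane metalloproteinases, 3 were lower in NIC tumours, 4 higher and 1 lower in KI tumours than in normal gland, and limma called none between the tumour types (5 had an unadjusted p under 0.05). Adamts5, an aggrecan-degrading enzyme, fell by 4.22 ± 0.52 in NIC tumours (adjusted p = 0.0243) and by 3.23 ± 0.55 in KI tumours (adjusted p = 0.00345). The NIC call of Adamts5 was lost without normal gland 1 or 2 (−4.42 and −4.03). Adamts9 and Adamts1 fell by 3.05 and 1.76 in NIC tumours (adjusted p = 0.00951 and 0.0271), with −1.67 and −0.60 on their second probes. The Adamts1 call was lost with the sample in Cy3 alone (−1.68, adjusted p = 0.106). Adamts4 rose by 2.85 ± 0.73 in KI tumours (adjusted p = 0.017), a call lost without normal gland 1 (3.23, adjusted p = 0.0506) or 2 (2.47, adjusted p = 0.11). Adam17 and Adam10, sheddases that release growth factors and receptor ectodomains, rose by 1.87 and 1.83 in KI tumours (adjusted p = 0.00572 and 0.00953), with 1.58 and 0.82 on their second probes. The normal glands lay apart, with Adam17 at −0.85 and −2.30 and Adam10 at −0.45 and −2.16. Without normal gland 2 the KI differences were 1.15 and 0.98. NIC tumours differed from normal gland by 1.52 and 1.37, with no call (adjusted p = 0.166 and 0.222).

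Among the 14 transcription factors known to act on metalloproteinase promoters, 4 were higher and 1 lower in NIC tumours, and 6 higher and 1 lower in KI tumours, than in normal gland. The PEA3 family rose in both. Etv5 was higher by 4.68 in NIC and 3.93 in KI tumours (adjusted p = 0.00936 and 0.00019; 1.69 and 0.65 on its second probe), and Etv4 by 3.14 and 2.80 (adjusted p = 0.00936 and 0.00101). Etv1 was higher by 5.06 in NIC tumours (adjusted p = 0.00936) and by 2.18 in KI tumours (adjusted p = 0.0309; 0.112 and 0.13 without normal gland 1 or 2). The KI difference of Etv1 was 1.27 (adjusted p = 0.262) with arrays scaled to 1 spread, 1.53 (adjusted p = 0.169) after quantile normalization and 1.80 (adjusted p = 0.0642) without the Cy3 array of normal gland 2. Fos, an AP-1 subunit, was higher by 1.36 and 2.47 (adjusted p = 0.0186 and 0.000329), with 0.065 (adjusted p = 0.718) for NIC tumours when arrays were scaled to 1 spread and 1.03 (adjusted p = 0.0508) without the Cy3 array of normal gland 2. Between the tumour types Etv1 was lower in KI tumours (−2.88, adjusted p = 0.0433), a call lost without NIC pool 1 (−2.80, adjusted p = 0.203) or 2 (−2.96, adjusted p = 0.183) and without KI tumour 1 (−2.58, adjusted p = 0.0563), 2 (−2.81, adjusted p = 0.0664) or 5 (−2.70, adjusted p = 0.0884). Fos was higher in KI tumours (1.11, adjusted p = 0.0308), a call lost without NIC pool 1 (1.02, adjusted p = 0.176), NIC pool 2 (1.20, adjusted p = 0.116) or KI tumour 4 (1.04, adjusted p = 0.0538).

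Of 12 matrix substrates, 2 were lower in NIC tumours and 2 higher in KI tumours than in normal gland, and 1 was higher in KI than in NIC tumours. Lamb3, a chain of the epithelial basement membrane protein laminin-332, was 6.4-fold higher in KI than in NIC tumours (2.68 ± 0.27, adjusted p = 0.00366) and higher by 2.44 than in normal gland (adjusted p = 0.000698). Spp1 (osteopontin) rose by 2.08 in KI tumours (adjusted p = 0.00415), and differed by 1.16 with no call (adjusted p = 0.113) without the Cy3 array of normal gland 2 or by 0.68 with no call (adjusted p = 0.151) with the sample in Cy5 alone. Sparc and the basement membrane collagen gene Col4a1 fell by 2.23 and 1.45 in NIC tumours (adjusted p = 0.0254 and 0.013), and the second Sparc probe gave −0.25. The Sparc call was lost without normal gland 1 or 2 (−2.49 and −1.98) and with the sample in Cy5 alone (−2.29, adjusted p = 0.0504). The Col4a1 call was lost with the sample in Cy3 alone (−0.96, adjusted p = 0.103) and with all 9 samples in the fit (−1.45, adjusted p = 0.0891).

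Of the 10 genes, 4 had an SD of at least 1 over the 9 RNA samples, and for these the genes of most similar pattern were searched among 27202 others by Pearson r over the samples, which share the reference RNA and fall into groups. For Mmp13 these were Nectin1 (r = 0.983), Inhba (0.980) and Rab31 (0.977). Inhba, an activin and inhibin subunit gene, read −4.18 and −3.63 in normal gland, −3.07 and −2.63 in the NIC pools and 1.38, −2.96, 0.19, 1.0 and −0.58 in the KI tumours, with tumour 2 again low. For Timp1 they included Pax5 (0.988) and an unnamed transcript (0.982). For Mmp3 they were Nae1 (0.980), the fibrillin gene Fbn1 (0.967) and Bicc1 (0.944). For Mmp14 they were an unnamed transcript (0.970), S100a14 (0.964) and Igll1 (0.959), of which S100a14 read 3.10, 0.80, 3.38, 3.24 and 2.91 in the KI tumours and 0.16 to 1.17 in the other samples. Some of these, such as Igll1 with levels between −0.090 and 0.099, matched in shape while hardly varying in level.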

How the data were processed

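Two-colour oligonucleotide arrays from Agilent measured 9 RNA samples, each on 2 arrays with exchanged dyes, after 1 round of linear amplification per the labels' protocols. The deposited value tables hold log2 ratios, taken as sample over reference. For KI columns this was checked on each array's scanner values (r = 0.982 to 0.988 after loess). Normal and NIC columns were read by analogy, and column medians lay between −0.0099 and 0.024. On 7 KI arrays the protocols and label fields name opposite dyes, and the label fields were followed. RMA appears in the submitters' processing notes without a role, and further steps behind the tables are not given here. The deposited KI scanner files hold intensities and a log10 ratio. Per the file headers they come from the Feature Extraction software of Agilent. As alternatives the intensities were corrected by normexp (offset 50) and loess, or the log10 ratio was used. Probes were read by spot number from the KI scanner files, taken to hold for the normal and NIC arrays too, and renamed through RefSeq tables of GRCm38.p6. Control spots were left out.

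Dye pairs were averaged, and the RNA sample was the replicate. Litters are not named in the labels, and p-values measure only how these samples spread. Differences were tested two-sided with lmFit and eBayes of limma 3.58.1 (R 4.3.3, with the data.table package, version 1.17.8) over all 41174 probes, with Benjamini-Hochberg adjustment, and an adjusted p under 0.05 was a call. For NIC and normal samples the fit held those 4 alone. KI comparisons came from 1 fit of all 9, in which pools and single tumours share 1 spread. The number of arrays limits the precision. From 6 pathway lists, genes called with a difference of at least 1 were named, up to 4 per list and comparison. Genes of similar pattern were the 3 of highest r, of which 1 is not reported here. The members and lists were chosen with earlier results of these data known. Alternatives covered dye, scaling, filter, source of KI values, blocking, samples in the fit and leaving out each sample.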

Additional observations from a re-analysis of the deposited data

Results flagged for a closer look

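Among the 5 KI tumours, 22 values were examined for a sample far from the others (the 14 member probes and the medians of 8 marker lists), and 3 stood out. Chance gives about 1 in 20 such groups. Mmp14 probe 1 in KI tumour 2, at −1.09, lay so far below the other KI tumours that its gap to the nearest took up 0.874 of the group's range, where 0.71 is the limit for 5 samples. Mmp15 in KI tumour 1, at 3.18, lay below the other KI tumours (0.809 of the range). The lymphocyte marker median in KI tumour 2, at −0.30, lay below those of the other KI tumours (0.711 of the range), which ran from −0.18 to −0.13.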

How the results depend on the processing

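For the members and the named genes of the pathway lists, 1702 of 1722 values recomputed under an alternative kept their direction, and 17 of the others were not called to begin with. For NIC against normal, 7594 probes were called, and 2905 with the sample in Cy3 alone, 15384 in a fit of single arrays that took the sample as random block, 15060 with all 9 samples in the fit, and 0 to 5051 with 1 sample left out. Where that count was 0, without either NIC pool, 9364 and 10592 probes had an unadjusted p under 0.05. The 9 member probes called became 2 in Cy3, 5 in Cy5, 5 with all 9 samples in the fit and 0 to 8 with 1 sample left out. The 3 others, called values that changed sign, were those of Timp1 for NIC against normal with arrays scaled to 1 spread (−0.40, −0.11 and −0.14). For KI against normal, 17391 probes became 11239 with arrays scaled to 1 spread, and the 6 member probes became 2 with that scaling, 3 with 1 probe per gene, and 0 to 8 with 1 sample left out. The lowest count, 0, was without normal gland 1, and the count was 1 without normal gland 2. For KI against NIC, 2878 probes became 6073 with the random block, 1561 with quantile normalization, 1779 with 1 probe per gene, 6027 with KI values from scanner intensities (normexp and loess) and 821 to 3157 with 1 sample left out. The 1 member probe became 4, 1, 1, 3 and 1 to 5, and 2 with scanner log ratios. Of the calls for KI against NIC 43.3% were higher in KI tumours, and 30.3% after quantile normalization. The cause of these shifts was not tested. Leaving out KI tumour 2 to read the members without it, and leaving out the Cy3 array of normal gland 2, were chosen after seeing the data. Interquartile ranges were 0.42 to 0.56 for KI columns, 0.51 to 0.55 for NIC and 0.76 to 0.97 for normal columns, which is where scaling acts. No paired analysis was possible because the groups share no replicate numbers in the labels.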

Other observations

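Tfpi2, which encodes a Kunitz-type inhibitor of plasmin and some metalloproteinases, varied among the KI tumours in another order than the members and was picked out after its values were seen. It read 1.0 and 0.68 in the normal glands, 0.86 and 0.92 in the NIC pools, and 1.21, 2.62, 1.29, 3.85 and 4.21 in KI tumours 1 to 5. KI tumours 4 and 5 were highest, KI tumour 2 came next, and KI tumours 1 and 3, which led for Mmp3, were nearest to the normal glands and NIC pools. No comparison of Tfpi2 was called (KI against normal 1.80 ± 0.86, adjusted p = 0.132; KI against NIC 1.75 ± 0.86, adjusted p = 0.281).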
